A study of Homo sapiens with 12 samples.

Results

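The genes described here encode the nuclear-encoded subunits of the 5 oxidative phosphorylation complexes. They were chosen by their symbols, which begin with NDUFA, NDUFB, NDUFC, NDUFS or NDUFV and a number (complex I), are SDHA to SDHD (complex II), or begin with UQCR (complex III), COX4 to COX8 (complex IV) or ATP5 (complex V). Pseudogenes, antisense genes and assembly factors were left out by the endings of their symbols, which removed ATP5EP2 and UQCRBP1. The rule gave 89 of 23284 listed genes and used no measured value. Of these, 84 passed a filter on low values (FPKM of at least 1 in at least 2 of 12 libraries) and were tested among 12946 genes. The tested members comprised 36 genes of complex I, 4 of complex II, 9 of complex III, 15 of complex IV and 16 of complex V. The other 4 matched the pattern without being subunits: ATP5S and ATP5SL, the read-through NDUFC2-KCTD14, and COX4NB, a neighbour of COX4I1 whose product belongs to a membrane complex of the endoplasmic reticulum.

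Complexes I and II pass electrons from NADH and succinate to ubiquinone, complex III passes them on to cytochrome c, and complex IV hands them to oxygen. Complexes I, III and IV pump protons across the inner mitochondrial membrane, and complex V, the ATP synthase, uses the return flow to make ATP. Each complex except complex II also holds subunits encoded by mitochondrial DNA, which are not described here, and several nuclear subunits exist as isoforms restricted to muscle, testis or low oxygen.

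RNA sequencing had been carried out on PANC-1, an established human pancreatic cancer line, carrying a ZsGreen reporter fused to the degron of ornithine decarboxylase, which accumulates when proteasome activity is low. All groups came from cells infected with this reporter and selected with G418, and the study treats ZsGreen-positive cells as stem-like. The degron (++) population was the brightest part of a line enriched by repeated sorting, and the degron (-) population was the infected line before enrichment, in which few cells were ZsGreen-positive. Each population was taken without irradiation (0 Gy, 48 h) and after 4 Gy of gamma rays at 30 h and at 48 h, with 2 libraries in each of the 6 groups. The labels do not say from which event the hours were counted, or whether the 2 libraries of a group came from separate cultures, so p-values measure only the spread between these libraries. The titles of the degron (-) libraries name them ZsGreen-negative, while their short descriptions carry a plus sign. The populations are bulk samples of 1 line each.

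The markers of the line were checked before the results. The epithelial keratins KRT8, KRT18 and KRT19 were abundant in every library, at 667 FPKM or more, while KRT7 was at 1142 to 1437 FPKM in degron (++) against 133 to 273 FPKM in degron (-). Vimentin (VIM), which PANC-1 is known to express strongly, was at 2376 to 2711 FPKM in degron (-) but at 13.2 to 19.2 FPKM in degron (++). CDKN2A, which PANC-1 is known to have lost by deletion, was listed at 100.4 to 112 FPKM in degron (++) and at 11.04 to 21.1 FPKM in degron (-). Its chromosomal neighbours CDKN2B (9.79 to 15.5 FPKM against 0.907 to 2.83 FPKM) and MTAP (16.4 to 18.5 FPKM against 2.83 to 5.001 FPKM) were likewise listed higher in degron (++). Among the markers of leukocytes, endothelium and muscle, PTPRC, CD3E, PECAM1, VWF, ACTA1, MYH7 and CKM stayed below 0.2 FPKM in all 12 libraries, CDH5 reached 0.516 FPKM and CD14 1.92 FPKM, both in degron (++). Of the fibroblast markers, DCN was listed at 0 and PDGFRB stayed below 0.2 FPKM, COL1A1 was at 36.5 to 52.3 FPKM in degron (-) against 0.531 to 0.826 FPKM in degron (++), and LUM at 13.8 to 24.7 FPKM in degron (++) against 0.290 to 1.61 FPKM in degron (-). These differences separate the populations in the same way as every population comparison below, so their part in those results was not tested and cannot be told apart from the reporter. VIM and CDKN2A in degron (++) were unlike what is known of PANC-1, and whether both populations are the same line was not tested.

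The respiratory chain genes were among the most abundant mRNAs of both populations. The tested members had a median of 129 FPKM over the 12 libraries, against 11.5 FPKM for all tested genes, and 52 of them reached 100 FPKM, a level reached by 7.55% of tested genes. Together the members summed to 15910 to 17450 FPKM in degron (++) libraries and to 16150 to 17120 FPKM in degron (-) libraries, ranges that overlap. As a share of all FPKM in a library the members made up 1.83 to 1.94% in degron (++) and 2.17 to 2.37% in degron (-), where the FPKM of all genes summed to more in degron (++), 829654 to 916877 against 707273 to 763064. In bulk samples, fewer cells of a type and less RNA per cell cannot be told apart.

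Between the populations, the respiratory chain genes did not move as a block: subunits of the same complex lay on opposite sides. At 0 Gy and 48 h, 28 of the 84 tested members were higher and 35 lower in degron (++) than in degron (-), by limma on log2(FPKM + 1) with Benjamini-Hochberg adjustment over all tested genes. Over all tested genes, 37.6% were called higher and 40.2% lower, so the members were called about as often as any gene. After 4 Gy at 30 h, 30 members were higher and 30 lower (38.3% and 40.8% of all tested genes), and after 4 Gy at 48 h, 30 were higher and 28 lower (37.1% and 39.6%). The median log2 difference of the members was -0.02, 0.02 and 0.04 in the 3 conditions, beside -0.02, -0.02 and -0.01 for all tested genes.

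The size of the differences was smaller than for most genes. A called difference of at least 1 on the log2 scale was found for 6, 5 and 3 members at 0 Gy 48 h, 4 Gy 30 h and 4 Gy 48 h, where 24.2%, 26.3% and 22.0% of all tested genes had one. The median absolute log2 difference of the members was 0.32, 0.33 and 0.32, against 0.51, 0.54 and 0.48 for all tested genes and 0.46, 0.53 and 0.46 for the 978 tested genes with a mean of at least 100 FPKM. The directions recurred across the conditions: 27 members were called higher in all 3 with no overlap between the 6 libraries of each population (32.1% of all tested genes met this), and 25 were called lower in the same way (34.9%). No member was called in opposite directions in different conditions, which 0.394% of tested genes were, and 17 members were called in none (12.7% of tested genes).

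**Figure D1:**
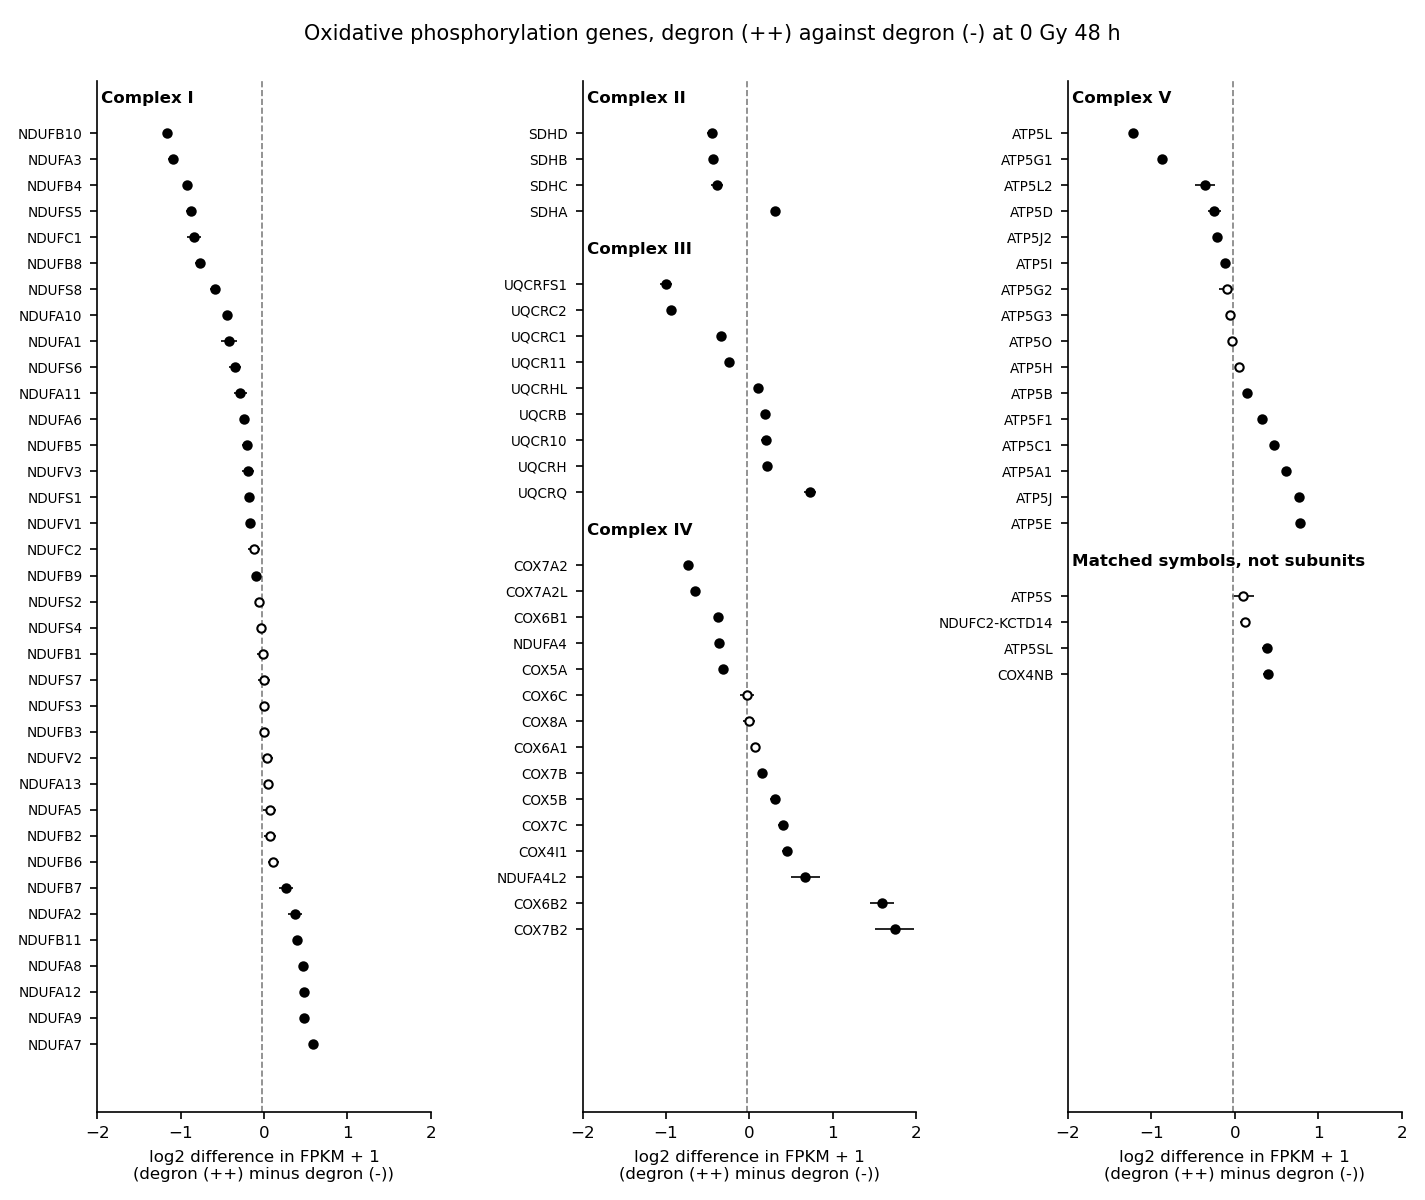
Log2 difference in FPKM + 1 between degron (++) and degron (-) at 0 Gy 48 h for each of the 84 tested members, ordered within its complex; bars are standard errors from limma over 2 libraries a group, filled points passed an adjusted p of 0.05 and the dashed line is the median of all tested genes. Every complex holds points on both sides of the line, from -1.22 (ATP5L) to 1.74 (COX7B2).

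How the counts divided between higher and lower depended on how libraries were scaled. A single entry, MIR622, held 28.6 to 29.9% of the FPKM of each degron (++) library and 22.5 to 27.1% in degron (-). Rescaling each library to the same sum (TPM) moved the median of all tested genes to -0.21, -0.27 and -0.25 in the 3 conditions and the split of the members to 17 higher and 47 lower at 0 Gy 48 h, 17 and 50 at 4 Gy 30 h, and 17 and 48 at 4 Gy 48 h. Quantile normalization gave splits of 23 and 37, 23 and 41, and 26 and 41, and centring each library on its median 30 and 29, 37 and 24, and 37 and 22. Leaving MIR622 out before the rescaling gave 21 and 44, 26 and 42, and 21 and 46. Of the calls at 0 Gy 48 h, 17 of 28 higher and 29 of 35 lower were kept in direction and call under all 4 scalings. The shares of all tested genes called or kept under these scalings are not given, so these counts are no result about the members in particular. After TPM rescaling the members' median stood at -0.02, 0.01 and 0.02 relative to that of all tested genes in the 3 conditions.

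Complex I, the NADH dehydrogenase, is the largest of the complexes. Of its 36 tested genes, 7 were higher, 17 lower and 12 not called at 0 Gy 48 h, with a median log2 difference of -0.07. Over all tested genes, 37.6% were called higher and 40.2% lower. The level of a complex in a library was the median log2(FPKM + 1) of its tested genes minus that of all tested genes. For complex I it was higher in degron (++), at 3.308 to 3.365 against 2.989 to 3.096 in degron (-). The counts and the level differed in direction, so no direction is given for the complex as a whole. The 7 core subunits, which carry the flavin and the iron-sulfur clusters, had 0 genes higher and 3 lower, and the 29 accessory subunits, which surround the core, had 7 higher and 14 lower. Among the core subunits, NDUFS8, a carrier of iron-sulfur clusters, differed most (chosen after its values were seen): it lay at 168 to 194 FPKM in degron (-) and at 116 to 126 FPKM in degron (++), a log2 difference of -0.59 ± 0.053 (SE; adjusted p = 6.55e-06).

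The accessory subunits gave the extremes of complex I. NDUFB10, a subunit of the membrane arm, was at 107 and 109 FPKM in the 2 unirradiated degron (++) libraries and at 244 and 241 FPKM in the degron (-) libraries. Over all conditions it lay at 107 to 115 FPKM in degron (++) and 216 to 244 FPKM in degron (-), so no library of one population reached the other. Its log2 difference was -1.16 ± 0.031 (adjusted p = 3.43e-09) at 0 Gy 48 h, and -1.04 and -0.93 at 4 Gy 30 h and 48 h. NDUFA3, a small membrane-arm subunit, was at 218 and 231 FPKM in degron (++) and at 492 and 467 FPKM in degron (-) without irradiation (log2 difference -1.09 ± 0.062, adjusted p = 3.02e-07). NDUFB4 was lower by a similar amount (-0.92 ± 0.055).

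In the other direction, NDUFA7, a subunit of the peripheral arm, was at 110 and 121 FPKM in unirradiated degron (++) and at 76.4 and 75.9 FPKM in degron (-), a log2 difference of 0.59 ± 0.056 (adjusted p = 9.12e-06). NDUFA9, which sits near the ubiquinone site and binds a nucleotide cofactor, was at 89.1 to 98.8 FPKM over the 6 degron (++) libraries and at 57.7 to 66.8 FPKM over the 6 degron (-) libraries, with a log2 difference of 0.48 ± 0.055 at 0 Gy 48 h and 0.64 at 4 Gy 48 h. The ratio of 2 subunits within a library is not changed by a factor common to all its genes, as in TPM rescaling, although quantile normalization can change it. The pairs here and below were chosen after their values were seen. That their ratios separate the populations follows from this choice and adds no support to the calls. NDUFA7 over NDUFB10 gave a ratio between 0.968 and 1.11 in the 6 degron (++) libraries, where the transcripts stood near parity, and between 0.313 and 0.367 in the 6 degron (-) libraries.

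Complex II, the succinate dehydrogenase, which also takes part in the tricarboxylic acid cycle and has no mitochondrially encoded subunit, split by subunit in the same way in all conditions. SDHA, the flavoprotein that oxidizes succinate, was at 89.2 and 89.9 FPKM in the unirradiated degron (++) libraries and at 73.4 and 71.1 FPKM in degron (-). SDHB, the iron-sulfur subunit, went the other way, with 152 and 155 FPKM in degron (++) against 204 and 212 FPKM in degron (-). Of the 2 membrane anchors, SDHC was at 14.3 and 16.2 FPKM against 20.3 and 20.2 FPKM, and SDHD at 73.0 and 69.8 FPKM against 101 and 95.3 FPKM.

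All 4 genes passed the test in each condition, with no overlap between the 6 libraries of each population. The log2 difference of SDHA was 0.31 ± 0.046 at 0 Gy 48 h (adjusted p = 0.000227), 0.38 at 4 Gy 30 h and 0.30 at 4 Gy 48 h. SDHB (-0.44 ± 0.035), SDHC (-0.39 ± 0.071) and SDHD (-0.45 ± 0.050) were lower at 0 Gy 48 h, and the median of the complex lay 0.39 below that of all tested genes, while the mean of the 4 genes stood at -0.22 relative to the same reference. The median of the 4 log2 differences lay 0.31 to 0.45 below that of all genes in every condition and under each scaling. The level of the complex in a library did not separate the populations, at 2.717 to 2.823 in degron (++) and 2.68 to 2.838 in degron (-). SDHA kept its direction under each scaling but was no longer past the threshold after TPM rescaling, at 0.10 at 0 Gy 48 h. SDHA over SDHB, as deposited, ranged from 0.523 to 0.585 in degron (++) and from 0.335 to 0.379 in degron (-). SDHA has near-identical pseudogenes with which reads can be shared: SDHAP1 and SDHAP2 stayed below 3 FPKM, and SDHAP3 held 1.22 to 2.66 FPKM in degron (++), below the 8.05 to 11.1 FPKM of degron (-).

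The promoters of 3 of these genes are shown because the genes of 1 enzyme moved in opposite directions. Each is the 250 bases before the RefSeq start on GRCh38.p14, and capitals mark GCGC, any 2 bases and GCGC again, the core of the NRF1 motif, or CCGGAAG, the core of ETS-type motifs such as that of NRF2 (GABP), searched on both strands. SDHA is chr5:218070-218319 on the plus strand, SDHB chr1:17054033-17054282 on the minus strand and SDHD chr11:112086623-112086872 on the plus strand; SDHC had no entry in the table used. A match is a description of letters and not a binding site.
SDHA: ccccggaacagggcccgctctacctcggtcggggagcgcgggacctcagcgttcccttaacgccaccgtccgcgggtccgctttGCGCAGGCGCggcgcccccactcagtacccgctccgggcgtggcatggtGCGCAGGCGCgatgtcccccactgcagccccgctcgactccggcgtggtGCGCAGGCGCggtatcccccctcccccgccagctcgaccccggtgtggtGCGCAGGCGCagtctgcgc
SDHB: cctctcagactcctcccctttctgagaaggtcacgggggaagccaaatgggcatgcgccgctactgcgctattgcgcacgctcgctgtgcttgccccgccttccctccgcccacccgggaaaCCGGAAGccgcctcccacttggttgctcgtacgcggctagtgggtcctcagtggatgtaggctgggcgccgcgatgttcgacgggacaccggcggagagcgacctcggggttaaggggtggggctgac
SDHD: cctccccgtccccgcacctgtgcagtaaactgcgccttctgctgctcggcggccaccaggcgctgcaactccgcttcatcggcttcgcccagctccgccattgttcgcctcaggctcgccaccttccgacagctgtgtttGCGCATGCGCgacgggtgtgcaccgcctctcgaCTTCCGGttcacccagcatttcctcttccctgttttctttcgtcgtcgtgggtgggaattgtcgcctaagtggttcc

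The window of SDHA held 4 matches to the NRF1-type letters and none to the ETS-type letters, that of SDHB 1 ETS-type match, and that of SDHD 1 of each. NRF1 and NRF2 are the factors best known for driving respiratory chain genes. Of the 68 tested members with a promoter in the table, 14 (20.6%) held the NRF1-type letters and 17 (25%) the ETS-type letters, against 14.4% and 16.5% of the 9973 promoters of tested genes and 7.59% and 8.82% of all 27305 promoters of the same length. Members called lower at 0 Gy 48 h held the NRF1-type letters in 9 of 27 promoters and members called higher in 4 of 25. The ETS-type letters were in 6 of 27 and 6 of 25. These counts are descriptions with no test.

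Complex III, the cytochrome bc1 complex, had 5 genes higher and 4 lower at 0 Gy 48 h and the same numbers in both irradiated conditions. UQCRFS1, the Rieske iron-sulfur protein and a catalytic subunit, was at 74.97 and 84.2 FPKM in unirradiated degron (++) and at 156 and 164 FPKM in degron (-). Its log2 difference was -1.002 ± 0.073 (adjusted p = 1.66e-06), and over all conditions it stayed at 74.6 to 85.3 FPKM in degron (++) and at 153 to 168 FPKM in degron (-). UQCRC2, one of the large core proteins that face the matrix, was lower by 0.94 ± 0.039 in the same comparison (89.6 to 101 FPKM against 160 to 180 FPKM over all conditions). UQCRQ, a small structural subunit that binds ubiquinone, was higher, at 143 and 162 FPKM against 93.8 and 89.5 FPKM (log2 difference 0.73 ± 0.071, adjusted p = 1.26e-05).

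UQCRQ exceeded UQCRFS1 in every degron (++) library, with a ratio from 1.84 to 2.11, and lay below it in every degron (-) library, with a ratio from 0.545 to 0.614. UQCRH, the hinge subunit, and UQCRHL, a near-identical copy of it at another locus, were both at 328 FPKM or more in every library, and how reads were divided between them is not known. Their log2 differences at 0 Gy 48 h were 0.21 ± 0.057 and 0.11 ± 0.043, and UQCRHL turned to -0.10 after TPM rescaling. Neither call was kept in every leave-one-out fit: UQCRH stood at 0.16 without the degron (++) replicate 2 and at 0.18 without the degron (-) replicate 2, and UQCRHL at 0.08 to 0.11 without either degron (++) library or the degron (-) replicate 2. The median of complex III lay 0.13, 0.24 and 0.20 above the median of all tested genes in the 3 conditions and turned to -0.12, -0.12 and -0.16 after quantile normalization. The mean of its 9 genes had the other sign at 0 Gy 48 h, at -0.10 relative to the same reference. The level of the complex in a library was lower in degron (++), at 3.061 to 3.226 against 3.278 to 3.445 in degron (-). For these reasons no direction is given for the complex as a whole.

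Complex IV, the cytochrome c oxidase, had 7 genes higher, 5 lower and 3 not called at 0 Gy 48 h. The level of the complex in a library overlapped between populations, at 3.838 to 4.124 in degron (++) and 4.03 to 4.156 in degron (-). COX4I1, the common isoform of the largest nuclear-encoded subunit, was at 508 and 536 FPKM in unirradiated degron (++) and at 385 and 381 FPKM in degron (-), a log2 difference of 0.45 ± 0.053 (adjusted p = 4.62e-05). COX7A2, the common isoform of subunit 7a, was at 163 and 171 FPKM against 278 and 276 FPKM, a log2 difference of -0.73 ± 0.035 (adjusted p = 1.02e-07). Within libraries COX4I1 stood 2.94 to 3.21 times above COX7A2 in degron (++), against 1.30 to 1.47 times in degron (-). COX7A2L, a relative of COX7A2 that joins complexes III and IV into supercomplexes, was lower as well, by 0.65 ± 0.054 on the log2 scale (63.9 to 72.9 FPKM against 102 to 109 FPKM). COX8A, a small membrane subunit, showed values of 779 to 934 FPKM in degron (++) and 866 to 955 FPKM in degron (-) and was not called in any condition (-0.00 ± 0.070 at 0 Gy 48 h).

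Of the 3 restricted isoforms of complex IV that were tested, COX6B2 and NDUFA4L2 differed in the opposite direction to their common counterparts at 0 Gy 48 h, and COX7B2 in the same direction. COX6B2, a testis isoform of the subunit that faces the intermembrane space, was at 9.39 and 8.36 FPKM in unirradiated degron (++) and at 2.88 and 1.76 FPKM in degron (-), a log2 difference of 1.59 ± 0.143 (adjusted p = 6.87e-06). The common COX6B1 was lower in degron (++), at 498 and 487 FPKM against 637 and 647 FPKM (-0.38 ± 0.029). The ratio of COX6B2 to COX6B1 lay between 0.0127 and 0.0189 in degron (++) libraries and was 0.00206 to 0.00453 in degron (-), with no overlap.

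COX7B2, a testis isoform of subunit 7b, gave the largest difference of all tested members at 0 Gy 48 h and 4 Gy 30 h; at 4 Gy 48 h COX6B2 lay higher. Its values were 9.07 and 8.34 FPKM in unirradiated degron (++) and 2.70 and 1.27 FPKM in degron (-), with log2 differences of 1.74 ± 0.230, 1.93 and 1.25 in the 3 conditions (adjusted p = 9.78e-05 at 0 Gy 48 h). The common COX7B was at 598 to 632 FPKM in degron (++) and at 531 to 587 FPKM in degron (-), a log2 difference of 0.15 ± 0.049 that turned to -0.06 after TPM rescaling and -0.05 after quantile normalization. Under quantile normalization COX7B was called lower at 4 Gy 30 h (-0.14, adjusted p = 0.0305) and at 4 Gy 48 h (-0.13, adjusted p = 0.0427), where it was called higher in the values as deposited. NDUFA4, long counted to complex I and now placed in complex IV, was lower by 0.37 ± 0.043 (37.2 to 41.7 FPKM against 48.9 to 54.3 FPKM). Its relative NDUFA4L2, which is induced at low oxygen, was near the filter, at 0.632 to 1.38 FPKM in degron (++) and 0.242 to 0.703 FPKM in degron (-), and was called higher without irradiation (0.67 ± 0.173) and at 4 Gy 30 h but not at 4 Gy 48 h (0.32). Without the unirradiated degron (++) replicate 1 its difference was 0.52 and no longer past the threshold.

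**Figure D2:**
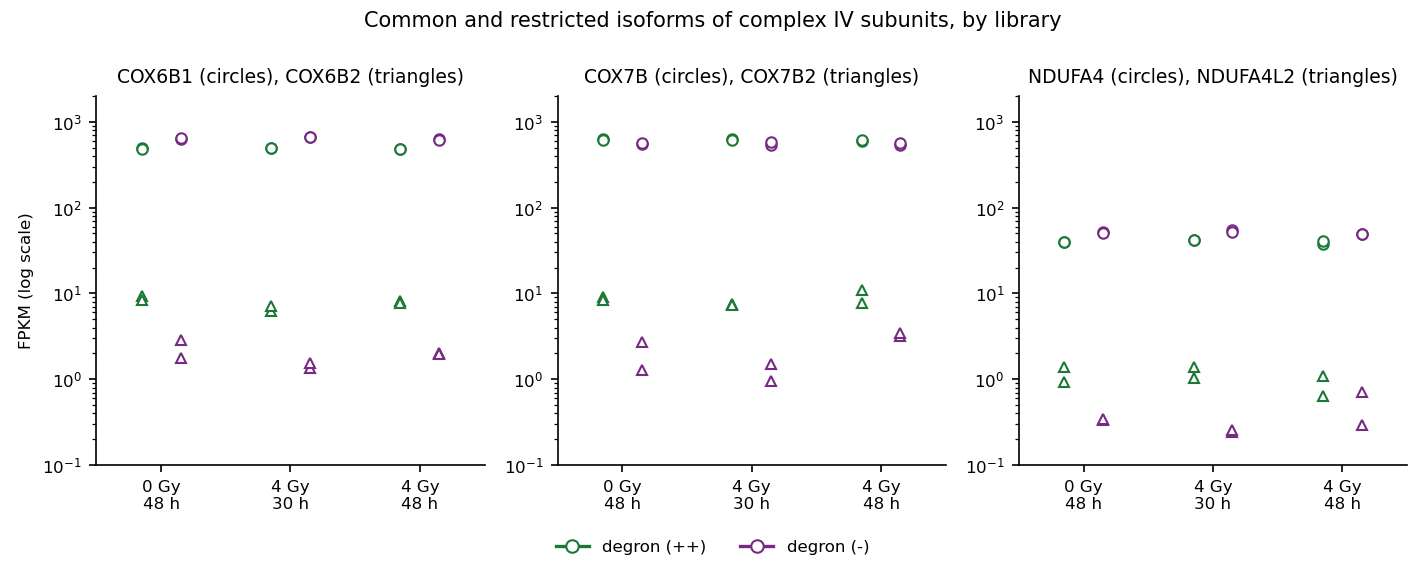
FPKM on a log axis of 3 common subunits of complex IV (circles) and their restricted relatives (triangles) in the 12 libraries, by dose and time, with degron (++) in green and degron (-) in purple. The restricted COX6B2 and COX7B2 lie higher in degron (++) in every condition while staying far below their common counterparts, and the values of NDUFA4L2 overlap at 4 Gy 48 h.

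The promoters of COX7B and COX7B2 are printed because these isoforms of 1 subunit differ widely in level. They cover the 250 bases before the RefSeq start on GRCh38.p14, at chrX:77899218-77899467 on the plus strand for COX7B and chr4:46909246-46909495 on the minus strand for COX7B2, and neither holds a match to the letters marked above.
COX7B: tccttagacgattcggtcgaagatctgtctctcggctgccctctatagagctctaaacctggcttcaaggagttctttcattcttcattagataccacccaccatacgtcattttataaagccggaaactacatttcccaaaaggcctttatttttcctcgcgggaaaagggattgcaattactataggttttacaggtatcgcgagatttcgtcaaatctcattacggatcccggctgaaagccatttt
COX7B2: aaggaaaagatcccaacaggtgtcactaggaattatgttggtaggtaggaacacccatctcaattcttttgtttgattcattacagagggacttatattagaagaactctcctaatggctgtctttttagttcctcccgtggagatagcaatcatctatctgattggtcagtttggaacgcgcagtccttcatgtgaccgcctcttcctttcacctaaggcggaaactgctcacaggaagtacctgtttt

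Complex V, the ATP synthase, had 6 genes higher, 6 lower and 4 not called at 0 Gy 48 h, and relative to the median of all tested genes its median (-0.02) and mean (0.02) differed in sign. The level of the complex in a library was higher in degron (++), at 4.292 to 4.337 against 4.05 to 4.146 in degron (-). Of the 5 subunits of the F1 head, where ATP is made, 4 were called higher and 1 lower at 0 Gy 48 h. Over all tested genes these shares were 37.6% and 40.2%. The median log2 difference of the 5 was 0.47. ATP5E, the epsilon subunit of the central stalk, was at 709 and 712 FPKM in unirradiated degron (++) and at 429 and 397 FPKM in degron (-), a log2 difference of 0.78 ± 0.038 (adjusted p = 1.13e-07). ATP5A1, the alpha subunit (0.61 ± 0.054), and ATP5C1, the gamma subunit (0.47 ± 0.046), both chosen after their values were seen, were higher in every library of degron (++) than in any of degron (-). ATP5B and ATP5D were also chosen after their values were seen. ATP5B, the catalytic beta subunit, was at 935 to 1029 FPKM against 798 to 882 FPKM, a difference of 0.14 ± 0.045 that turned to -0.07 after TPM rescaling and -0.06 after quantile normalization, and ATP5D, the delta subunit, was lower at 0 Gy 48 h only (-0.24 ± 0.076). ATP5E shares nearly all of its sequence with the pseudogene ATP5EP2, listed at 736 to 821 FPKM in degron (++) and at 520 to 583 FPKM in degron (-), so the division of reads between them is uncertain.

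The stalk and membrane subunits of complex V diverged more. ATP5J, the coupling factor 6 of the peripheral stalk, was at 276 and 275 FPKM against 162 and 160 FPKM (log2 difference 0.77 ± 0.031, adjusted p = 3.49e-08). ATP5L, subunit g of the membrane part, was at 122 in both unirradiated degron (++) libraries and at 289 and 280 FPKM in degron (-). Its log2 difference of -1.22 ± 0.037 (adjusted p = 6.9e-09) was the lowest of all members, and its mean was 2.33 times higher in degron (-). ATP5L2, a copy of ATP5L at another locus, lay at 0.428 to 1.33 FPKM over all libraries, and its difference of -0.36 ± 0.124 turned to 0.06 after quantile normalization. Within libraries ATP5E stood 5.80 to 6.22 times above ATP5L in degron (++), against 1.42 to 1.74 times in degron (-).

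The ring of c subunits, which turns as protons pass, is encoded by 3 genes that give the same mature protein. ATP5G1 was at 230 and 233 FPKM in unirradiated degron (++) and at 431 and 415 FPKM in degron (-), a log2 difference of -0.87 ± 0.035 (adjusted p = 3.67e-08). ATP5G2 (178 to 234 FPKM against 202 to 251 FPKM) and ATP5G3 (99.2 to 111 FPKM against 95.6 to 107 FPKM) were not called in any condition, with differences of -0.10 ± 0.086 and -0.06 ± 0.055 at 0 Gy 48 h. ATP5G1 over ATP5G3 ranged from 2.16 to 2.38 in degron (++) and from 3.64 to 4.04 in degron (-), pairs that, like the other ratios, were chosen after their values were seen.

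**Figure D3:**
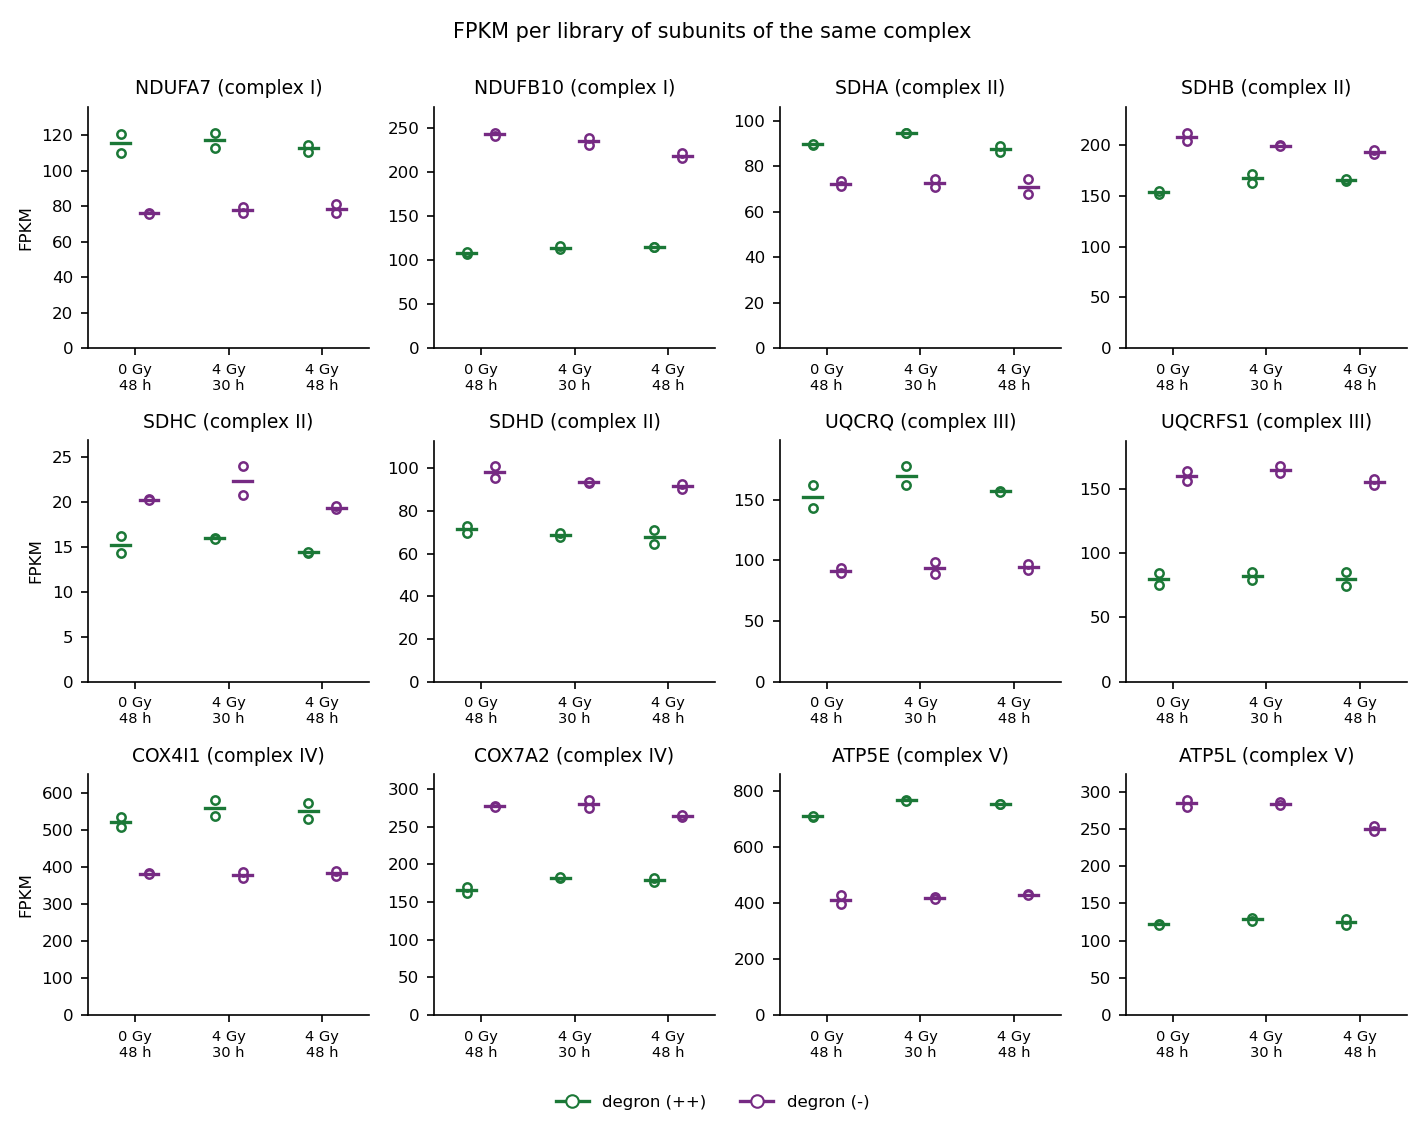
FPKM in each of the 12 libraries for 12 subunits, by dose and time, with degron (++) in green and degron (-) in purple; open points are libraries, short lines are means of 2 libraries, and each axis starts at 0. NDUFA7, SDHA, UQCRQ, COX4I1 and ATP5E lie higher in degron (++), while their partners NDUFB10, SDHB, SDHC, SDHD, UQCRFS1, COX7A2 and ATP5L lie lower, without overlap in any condition.

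Among the genes that matched the symbols without being subunits, ATP5SL (0.39 ± 0.062) and COX4NB (0.40 ± 0.062) were higher in degron (++) at 0 Gy 48 h, and ATP5S and NDUFC2-KCTD14 were not called. NDUFC2-KCTD14 shares exons with NDUFC2, so reads of these genes cannot be separated with certainty. The 5 members under the filter were the restricted isoforms COX4I2, COX6A2 and COX7A1, at most 0.463 FPKM in any library, COX8C, listed at 0 in all, and the read-through ATP5J2-PTCD1, listed at 8.24 FPKM in a single degron (++) library after 4 Gy at 30 h and at most 0.007 FPKM in the others.

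With irradiation, few respiratory chain genes passed the test and none by as much as 1 on the log2 scale. At 48 h, 4 Gy against 0 Gy gave 1 member higher and 0 lower in degron (++), where 1.42% and 0.402% of all tested genes were called higher and lower; at an unadjusted p under 0.05 there were 11 members (13.1%, against 17.6% of all tested genes). That member was NDUFB9, an accessory subunit of complex I, at 300 and 312 FPKM without irradiation and 340 and 345 FPKM after 4 Gy (log2 difference 0.16 ± 0.030, adjusted p = 0.0385). In degron (-), 0 members were higher and 3 lower (3.85% and 0.873% of all tested genes): ATP5L (-0.18 ± 0.037, adjusted p = 0.0293), NDUFB10 (-0.15 ± 0.031, adjusted p = 0.033) and ATP5G1 (-0.16 ± 0.035, adjusted p = 0.0425). These 3 genes were also higher in degron (-) than in degron (++) at 0 Gy 48 h, as were 35 of the 84 tested members (40.2% of all tested genes). Both comparisons use the same unirradiated degron (-) libraries and are not independent, so nothing is read from this overlap. ATP5L went from 289 and 280 FPKM to 254 and 247 FPKM. At an unadjusted p under 0.05 there were 17 members in degron (-), 3 higher and 14 lower (20.9% of all tested genes). None of these 4 adjusted calls was kept when any 1 of the 4 libraries compared was left out, nor after TPM rescaling, although every direction was kept.

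Few members were called with time after 4 Gy as well. From 30 h to 48 h, 0 members were higher and 0 lower in degron (++) by limma (0.657% and 0.548% of all tested genes), with 11 members at an unadjusted p under 0.05 (15.8% of all tested genes). In degron (-), 1 member was higher and 3 were lower (6.01% and 1.17%), with 20 members at an unadjusted p under 0.05 (22.3%). ATP5J2, subunit f of the ATP synthase, fell from 512 and 513 FPKM to 443 and 410 FPKM (-0.27 ± 0.044, adjusted p = 0.0095), and ATP5L (-0.18 ± 0.037) and NDUFB4 (-0.23 ± 0.055) fell as well. COX7B2 rose from 0.943 and 1.49 FPKM to 3.18 and 3.43 FPKM (0.97 ± 0.230, adjusted p = 0.0397). The unirradiated degron (-) libraries held 2.70 and 1.27 FPKM of it, so 1 of them lay within the range of the 30 h libraries. The call of COX7B2 was lost without any 1 of the 4 libraries, with differences of 0.79 to 1.15, and that of NDUFB4 likewise, while those of ATP5J2 and ATP5L were kept only without replicate 1 of 4 Gy 48 h.

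Whether dose or time acted differently in the populations was tested by interaction terms. By limma, 0 members passed in either (0.0772% of all tested genes passed for dose and 3.23% for time). At an unadjusted p under 0.05 there were 10 members for dose, where 13.6% of all tested genes reached that level. All 10 had a more positive log2 difference with dose in degron (++) than in degron (-). For time there were 6 members, against 17.9% of all tested genes. Of these, 5 had a more positive log2 difference with time in degron (++) than in degron (-). The lowest p-values for the dose interaction were those of NDUFB10 (0.23 ± 0.044, adjusted p = 0.109), ATP5G1 (0.24 ± 0.050, adjusted p = 0.128) and ATP5L (0.22 ± 0.052, adjusted p = 0.139). The median log2 difference with dose of the members was 0.03 in degron (++) and -0.05 in degron (-), with a median interaction of 0.06 against -0.01 for all tested genes. The 978 tested genes with a mean of at least 100 FPKM had medians of 0.05 in degron (++) and 0.0 in degron (-). Their median interaction was 0.05, close to that of the members. After quantile normalization the members' median interaction stood only 0.01 above that of all tested genes.

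**Figure D4:**
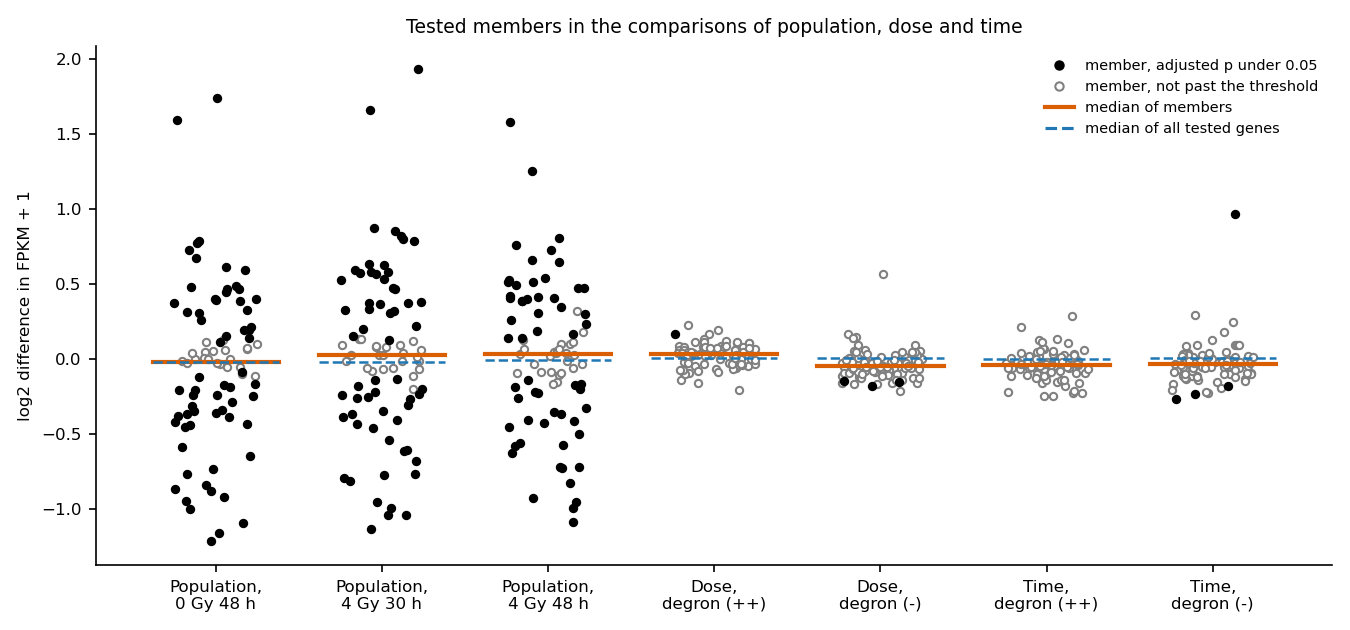
Log2 differences in FPKM + 1 of the 84 tested members in the 3 population comparisons, 4 Gy against 0 Gy at 48 h and 48 h against 30 h after 4 Gy; filled points passed an adjusted p of 0.05, the orange line is the median of the members and the dashed blue line that of all tested genes. Members spread from -1.22 to 1.93 between populations, while for dose and time they lie between -0.27 and 0.29, except COX7B2 in degron (-) at 0.57 and 0.97.

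The position of the members on the chromosomes was set beside their differences. For each of the 83 members that could be placed by gene order in RefSeq (GRCh38.p14), the median log2 difference of up to 20 nearest tested genes that are not members was taken, 10 on each side, a measure chosen after the data were seen. Across the 83 members at 0 Gy 48 h the member and its neighbours correlated with Pearson's r of 0.478 and Spearman's rho of 0.526, and across all 12530 placed genes with 0.343 and 0.396. These are correlations across genes, which share libraries and neighbours and are not independent replicates. The member had the sign of its neighbours in 55 of 83 cases (66.3%), as 66.2% of all placed genes did.

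Some of the most displaced subunits lay in displaced surroundings. ATP5G1 on chromosome 17 (-0.87) had neighbours with a median of -1.45, UQCRC2 on chromosome 16 (-0.94) of -0.72, NDUFB10 on the same chromosome (-1.16) of -0.58 and UQCRFS1 on chromosome 19 (-1.002) of -0.53. On the higher side, NDUFA9 on chromosome 12 (0.48) had neighbours at 0.61, and ATP5A1 on chromosome 18 (0.61) at 0.51. Others did not follow: ATP5G2 on chromosome 12 (-0.10) had neighbours at -1.40, and COX6B2 on chromosome 19 (1.59) at -0.25. NDUFS5 on chromosome 1 (-0.88) and NDUFC1 on chromosome 4 (-0.84) had neighbours at -0.03 and -0.11. By chromosome, 7 of 8 members on chromosome 11 and 1 of 6 on chromosome 12 had a negative difference, chromosomes picked after their values were seen. Those on chromosome 11 include NDUFS3 (-0.001) and COX8A (-0.003), which were not called. The share over all genes of each chromosome is not given, so no regional pattern is read from these counts. DNA copy number was not measured, and its part in these values was not tested.

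**Figure D5:**
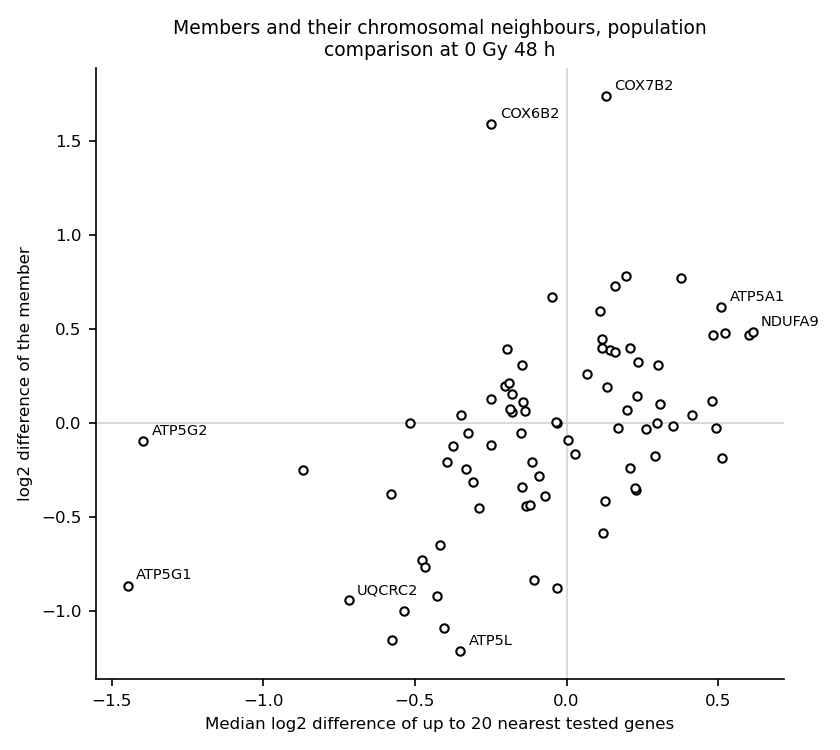
Log2 difference of each of 83 members at 0 Gy 48 h (vertical axis) against the median log2 difference of up to 20 nearest tested genes (horizontal axis). Points run from the lower left (ATP5G1, UQCRC2) to the upper right (NDUFA9, ATP5A1), with ATP5G2, COX6B2 and COX7B2 standing apart.

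Gene groups that work with the respiratory chain were set beside it in the population comparison at 0 Gy 48 h, with the medians of the irradiated conditions given last. Of 6 subunits or partners that the symbols do not match, NDUFAB1, the acyl carrier protein of complex I, was at 149 to 169 FPKM in degron (++) and 250 to 275 FPKM in degron (-) (log2 difference -0.79 ± 0.041), and USMG5, a small membrane protein of the ATP synthase, was lower as well (-0.41 ± 0.036). ATPIF1, the inhibitor of the ATP synthase, was higher (0.46 ± 0.062), as was the ATP synthase protein C14orf2 (0.28 ± 0.035), and the list had 2 higher and 4 lower. Assembly factors had 11 of 33 higher and 12 lower with a median of 0.07, from the complex I factor NDUFAF3 (-1.66 ± 0.063, 18.1 to 25.9 FPKM against 64.7 to 71.7 FPKM) to the ATP synthase factor ATPAF2 (1.38 ± 0.065), with NDUFAF4 at -0.81 ± 0.077 and the complex IV factor COX14 at 1.06 ± 0.075. The tricarboxylic acid cycle and pyruvate dehydrogenase had 5 of 18 higher and 10 lower, with a median of -0.19, among them IDH2, the mitochondrial NADP-dependent isocitrate dehydrogenase (-0.96 ± 0.061), and DLAT, a core enzyme of pyruvate dehydrogenase (-0.81 ± 0.038), while DLST (0.50 ± 0.050) and SUCLG1 (0.27 ± 0.059) were higher.

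Regulators of mitochondrial biogenesis had 6 of 14 called higher and 2 lower, with a median of -0.01. PPARGC1A, the coactivator PGC-1 alpha, was low in both, at 1.68 to 2.97 FPKM in degron (++) and 0.128 to 0.376 FPKM in degron (-) (1.59 ± 0.128), and TFB1M, which methylates the mitochondrial ribosomal RNA, was lower (-0.90 ± 0.096). The coactivator PPRC1 was lower too (-0.24 ± 0.035) and TFB2M, the mitochondrial transcription factor, higher (0.42 ± 0.069). Mitochondrial ribosome proteins, which translate the mitochondrially encoded subunits, had 21 of 76 higher and 31 lower with a median of -0.10, from MRPS12 (-2.15 ± 0.033) and MRPL28 (-1.03 ± 0.051) to MRPS2 (0.99 ± 0.061) and MRPS31 (1.11 ± 0.055). Cytosolic ribosome proteins had 65 of 80 higher and 8 lower with a median of 0.57, which stayed at 0.38 to 0.62 under the 4 other scalings. Among these RPS16 was the lowest with a value in every library (-2.93 ± 0.064) and RPL23A (1.92 ± 0.084) and RPS26 (1.602 ± 0.104) the highest, and RPL39L was listed at 0 in all degron (++) libraries and at 51.5 to 67.3 FPKM in degron (-). No test between lists was run. After 4 Gy at 30 h and 48 h the medians were -0.17 and -0.11 for the subunits and partners, 0.21 and 0.18 for the assembly factors, -0.07 and -0.02 for the tricarboxylic acid cycle, 0.27 and 0.14 for the regulators, 0.06 and -0.01 for the mitochondrial ribosome and 0.69 and 0.61 for the cytosolic ribosome. The regulators, the tricarboxylic acid cycle and the mitochondrial ribosome thus had medians that differed between the conditions. Those of the regulators and of the mitochondrial ribosome also differed in sign.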

How the data were processed

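RNA of 12 libraries, 2 in each of 6 groups, had been sequenced from stranded polyadenylated libraries. The authors deposited 1 table of FPKM values (fragments scaled by transcript length and by mapped fragments of the library) per gene and library. The submitters' processing notes name TopHat2 2.1.1, Bowtie2 2.2.8, SAMtools 0.1.18, Cuffdiff 2.2.1 and the build hg19, without their settings. No counts were used, so the depth behind each FPKM value is unknown. Estimated FPKM can move between near-identical genes, which affects ATP5E, SDHA and UQCRH.

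Groups were taken from the sample titles. Genes that reached an FPKM of 1 in 2 or more libraries were transformed to log2(FPKM + 1) and fitted with limma 3.58.1 (R 4.3.3) with 6 group means over all 12 libraries and a trended prior. P-values were adjusted by Benjamini-Hochberg over all 12946 tested genes at 0.05. Fold changes on this scale understate those of low genes. On simulated data (12402 genes, 200 shifted by 1 on the log2 scale at 0 Gy 48 h), 97% of shifted genes were recovered with 5 false calls. Apart from the shift, all simulated libraries shared a single mean per gene, and genes of low level were not shifted. These rates therefore do not describe smaller differences, or comparisons in which most genes differ, as between the populations. Contrasts were the population in each of 3 conditions, dose at 48 h, time after 4 Gy, and the interactions of population with dose and time.

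The members and the gene lists were chosen with earlier results of these data known. Named members were the 2 highest and 2 lowest per complex at 0 Gy 48 h, all SDH genes, isoform pairs, members under the filter and members called with dose or time; others are said to be chosen after their values were seen. The markers CDKN2A, CDKN2B and MTAP were also added after the data were seen. Promoters (250 bases before the start), gene order and names came from RefSeq tables on GRCh38.p14, since no hg19 annotation was used here. Alternatives were the pseudocount, the filter, 4 scalings (TPM without MIR622 was chosen after seeing the data), the prior, a replicate block, a fit on only the libraries compared and leaving out each library in turn. Python 3.11.15 with pandas 2.3.3, numpy 2.4.6, scipy 1.17.1 and matplotlib 3.10.9 was used.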

Additional observations from a re-analysis of the deposited data

How the results depend on the processing

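The median log2 difference of the members relative to that of all tested genes moved by more than 0.046 only under quantile normalization. It moved to -0.11, -0.14 and -0.16 in the population comparisons at 0 Gy 48 h, 4 Gy 30 h and 4 Gy 48 h, and to 0.01 for the dose interaction. The limit of 0.046 is the SD between replicates of another measure, the members' median level in a library relative to the library median. TPM rescaling gave 17, 17 and 17 members higher, and 50 and 48 lower at 4 Gy 30 h and 48 h, and TPM without MIR622 gave 46 lower at 4 Gy 48 h. Counts of members in this section are given without the shares of all tested genes under the same setting. The dose call in degron (++) fell from 1 to 0 under quantile normalization, both TPM rescalings, the untrended prior, the replicate block and the fit on only the libraries compared. The 3 members lower with dose in degron (-) fell to 0 under both TPM rescalings, the untrended prior and the fit on only the libraries compared, and those higher rose from 0 to 1 without the filter and 2 under quantile normalization. With time, median centring gave 1 lower in degron (++) and 7 in degron (-), where the untrended prior, TPM without MIR622 and the fit on only the libraries compared gave 1. Without the filter 1 member was lower in each interaction, and quantile normalization gave 1 higher in the time interaction. The causes were not tested. Leaving out 1 library gave 0 to 0 dose calls in each population, and 0 to 2 lower and 0 to 0 higher for time in degron (-). In the population comparisons it gave 23 to 32 members higher and 25 to 33 lower.

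Some differences turned in sign, with COX7B past the threshold in the other direction under quantile normalization after 4 Gy. At 0 Gy 48 h, quantile normalization gave 0.06 for ATP5L2, -0.05 for COX7B and -0.07 for UQCRHL, TPM gave -0.06 for COX7B, -0.10 for UQCRHL and -0.15 for COX6A1, TPM without MIR622 gave -0.01 for UQCRHL and -0.06 for COX6A1, and centring gave 0.00 for ATP5G3 and 0.05 for COX8A. At 4 Gy 30 h, quantile normalization gave -0.11 for ATP5G3, -0.05 for COX6A1, -0.14 for COX7B, -0.35 for COX8A and -0.09 for UQCRHL, TPM gave -0.25 for ATP5G3, -0.16 for COX6A1, -0.13 for COX7B and -0.25 for COX8A, TPM without MIR622 gave -0.13, -0.04, -0.01 and -0.12 for the same 4 genes, and centring gave 0.06 for NDUFB9. At 4 Gy 48 h, quantile normalization gave -0.03 for ATP5G3, -0.13 for COX7B, -0.11 for NDUFB9 and -0.11 for UQCRHL, TPM gave -0.17, -0.12, -0.21 and -0.08 for these and -0.12 for COX6A1, TPM without MIR622 gave -0.10, -0.06, -0.15, -0.01 and -0.06, and centring gave 0.00 for ATP5G2, 0.06 for ATP5J2 and 0.00 for COX8A. Leaving out 1 library gave COX8A -0.04 to 0.04, -0.03 to 0.11 and -0.19 to 0.02 in the 3 conditions, ATP5G3 -0.00 to 0.06 at 4 Gy 30 h, and ATP5G2 -0.20 to 0.02 and ATP5J2 -0.09 to 0.02 at 4 Gy 48 h. Among other called members, ATP5B turned from 0.32 to -0.08 at 4 Gy 30 h and from 0.23 to -0.14 at 4 Gy 48 h under quantile normalization, and UQCR10, UQCRB, NDUFB1 and NDUFB2 turned to between -0.01 and -0.09 under TPM in at least 1 condition. Taken as a mean instead of a median, complex II stood at -0.22, -0.17 and -0.18 relative to the median of all tested genes and complex IV at 0.22, 0.29 and 0.20. The mean of complex IV includes its 3 tested restricted isoforms, which were of low FPKM. Their median log2 difference was 1.59, 1.66 and 1.25 in the 3 conditions. No direction is therefore read from this mean for the common subunits.

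No strong pairing by replicate number was seen: deviations of same-numbered libraries from their group means correlated by -0.04 to 0.12 over 15 pairs of groups, with 2 over 0.1. Such a check cannot show that the libraries were unpaired. With the replicate block 27 members were higher and 34 lower at 0 Gy 48 h, and 1 higher and 2 lower with time in degron (-).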
